A study of Mus musculus with 20 samples.

Results

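Gene expression was compared between hippocampus and amygdala of control mice at postnatal day 21. The comparison holds 8 of the study's 20 RNA sequencing libraries, the 4 labelled control in each tissue, taken by their labels for tissue and genotype. The other 12 are 3 NCoR1-KO and 3 SMRT-KO libraries per tissue, and served here only as separate libraries of the same tissues. Those knockouts join floxed alleles to Snap25-IRES2-cre, a Cre line active in all neurons. Whether the controls carried Cre or floxed alleles is not in the labels, which give no animal for a library either. All p-values therefore measure the spread between these libraries, which may be in part technical. Tissue is the only labelled difference between the groups, so region and any difference in dissection or handling cannot be told apart.

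The hippocampus is a fold of cortex in which granule cells of the dentate gyrus project to CA3 pyramidal cells, and these project to CA1. The amygdala joins cortex-like nuclei of excitatory neurons, the basolateral group, with striatum-like nuclei of inhibitory neurons, among them the central nucleus and the intercalated cell clusters, and with a medial nucleus that has close ties to the hypothalamus. The hippocampus is known for spatial and episodic memory, the amygdala for learned fear and emotional value.

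Values are TPM, a unit scaled for transcript length and to a fixed total in each library on its own. The files hold no counts, so depth is unknown and counting error could not be computed. Between 14066 and 14509 genes reached 1 TPM in a control library. Across genes, as a description only, Pearson's r of log2(TPM + 1) lay between 0.986 and 0.991 for pairs of libraries from the same tissue and between 0.958 and 0.978 for pairs from different tissues. Ncor1, the corepressor gene deleted in NCoR1-KO, was at 81.6, 119, 129 and 137 TPM in hippocampus controls 1 to 4 and at 71.3, 117, 119 and 127 TPM in amygdala controls 1 to 4. Replicate 1 was the lowest in both tissues. The difference between tissues was 0.11 ± 0.20 (SE, adjusted p = 0.716) on the log2(TPM + 1) scale, which did not pass. Snap25, the locus of the Cre driver, was at 2255 against 2033 TPM on average (log2 difference 0.15 ± 0.07, adjusted p = 0.123).

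Some libraries stood apart from others of the same tissue in genes known from neighbouring structures. Hippocampus control 2 lay above the mean of its tissue by 0.92 (median over the list, log2 scale) for 14 genes of the hypothalamus, by 0.66 for 6 genes of intercalated amygdala cells and by 0.49 for 23 genes of striatal projection neurons. Its deviation for 14 dentate granule cell genes was -0.34. Amygdala control 3 deviated by 0.77 for the striatal genes and amygdala control 2 by -0.62. The summed level of 5 choroid plexus markers was 3252, 3309, 32.4 and 604 TPM in hippocampus controls 1 to 4 and 1086, 21.2, 77.9 and 29.8 TPM in amygdala controls 1 to 4. Of 4 hypothalamic markers, Hcrt and Pmch did not reach the filter, and the sum of all 4 was 0.62, 0.93, 0.29 and 3.01 TPM in hippocampus and 63.2, 3.77, 56.7 and 1.94 TPM in amygdala. Amygdala controls 1 and 3 were thus above the other 6 libraries in this sum, which holds only 2 genes that reached the filter, and Trh below did not follow that order. The part of these structures in the regional differences was not tested. Values without hippocampus control 2 are given for some of the genes in which it stood high.

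Markers of both dissected structures were detected, but not all of them separated the tissues. The summed level of 3 CA3 markers was 135, 133, 169 and 166 TPM in hippocampus and 40.96, 33.8, 39.1 and 40.3 TPM in amygdala, with no overlap. For 4 basolateral amygdala markers the sums were 256, 238, 243 and 208 TPM and 333, 332, 369.9 and 414 TPM, and for 3 markers of intercalated cells 37.7, 68.3, 38.7 and 46.4 TPM and 109, 102, 139.8 and 101 TPM. The sums of 5 central nucleus markers overlapped, at 50.4, 83.3, 67.4 and 125 TPM in hippocampus and 94.4, 76.1, 105 and 79.04 TPM in amygdala. Of these 5, 3 were higher in amygdala, 0 were higher in hippocampus and 2 did not pass. Prkcd, among those that did not pass, was at 18.4, 35.1, 35.4 and 98.1 TPM in hippocampus and 20.1, 13.8, 17.8 and 18.04 TPM in amygdala. The sums of 3 medial nucleus markers overlapped too, at 11.8, 19.8, 15.1 and 12.6 TPM in hippocampus and 7.47, 16.6, 14.6 and 8.09 TPM in amygdala. Cyp19a1 among them did not reach the filter, and of the 2 tested, Lhx9 was higher in hippocampus and Esr1 in amygdala. The sums of 5 dentate markers overlapped as well, at 296, 217, 263 and 247 TPM against 174, 287, 243 and 217 TPM. In amygdala Calb1, one of these 5 and widespread in neurons, made up most of that sum.

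**Figure D1:**
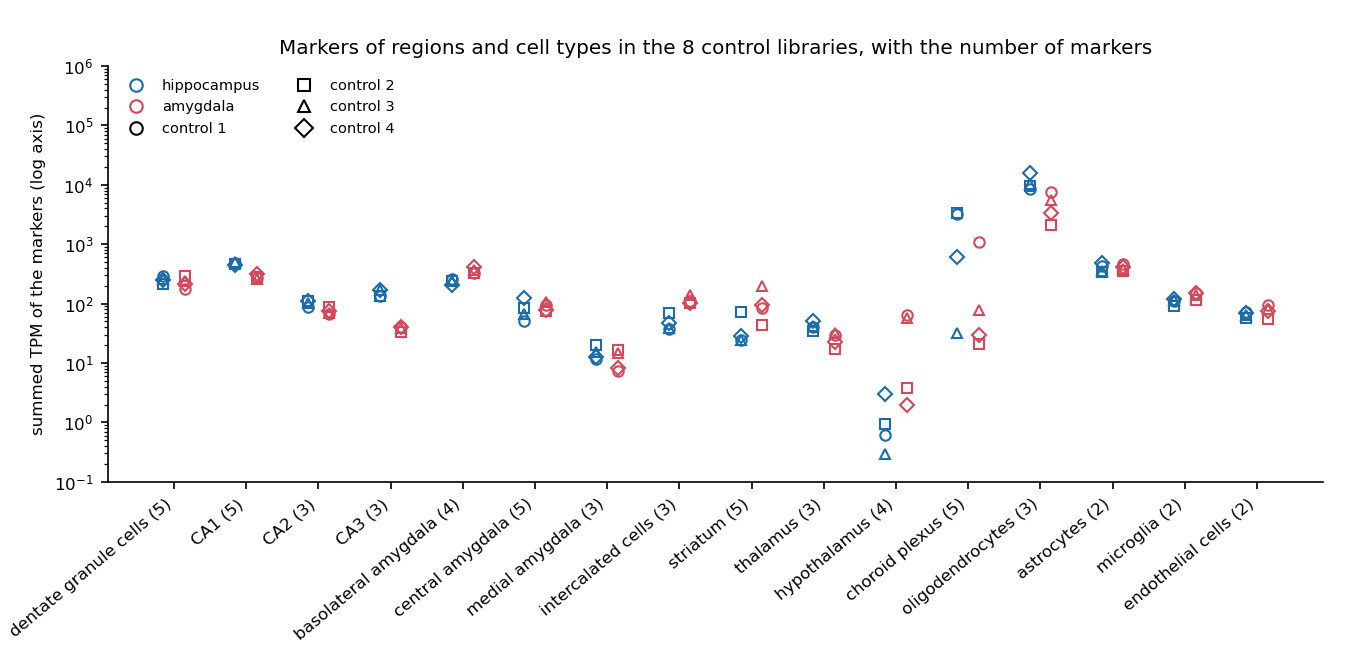
Summed TPM (log axis) of marker genes for 16 regions and cell types in the 8 control libraries, with the number of markers in brackets; colours give the tissue and symbols the library. CA3 markers separated the tissues in all libraries, while choroid plexus markers ranged from 32.4 to 3309 TPM within hippocampus.

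The test covered the 14581 genes with 1 TPM or more in 3 or more of these libraries. At an adjusted p under 0.05 in limma, 4750 of them (32.6%) differed between the tissues. Of all genes tested, 1967 (13.5%) were higher in hippocampus and 2783 (19.1%) higher in amygdala. This excess toward amygdala depended on the scaling, and with quantile-normalized values the counts were nearly even, at 2380 and 2406. Differences are given as hippocampus minus amygdala on the log2(TPM + 1) scale, ± SE with 4 libraries per tissue, with p-values from limma adjusted over all genes tested. Pairs of mean levels give hippocampus first, with ± SD where one follows. Most differences were small. A difference of at least 1 was reached by 651 genes (4.46%), of which 284 (1.95% of all tested) were higher in hippocampus and 367 (2.52%) in amygdala. Every hippocampus library lay above every amygdala library for 1993 genes (13.7%), and the reverse held for 2815 (19.3%). The log2(TPM + 1) scale understates the differences of genes with low levels, and the median difference over all genes was -0.03. Genes higher in amygdala by at least 1 spanned a median of 41.2 kb of genome and those higher in hippocampus 32.5 kb, against 24.96 kb for all genes tested. Over all called genes, whatever the size of the difference, the order was reversed, at 27.87 kb and 36.21 kb. On the X chromosome lay 21 genes (5.79%) of those higher in amygdala by at least 1 and 5 (1.77%) of those higher in hippocampus by at least 1. The share of all genes tested was 3.57%. Without hippocampus control 2, 303 genes were higher in hippocampus and 442 in amygdala by at least 1.

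**Figure D2:**
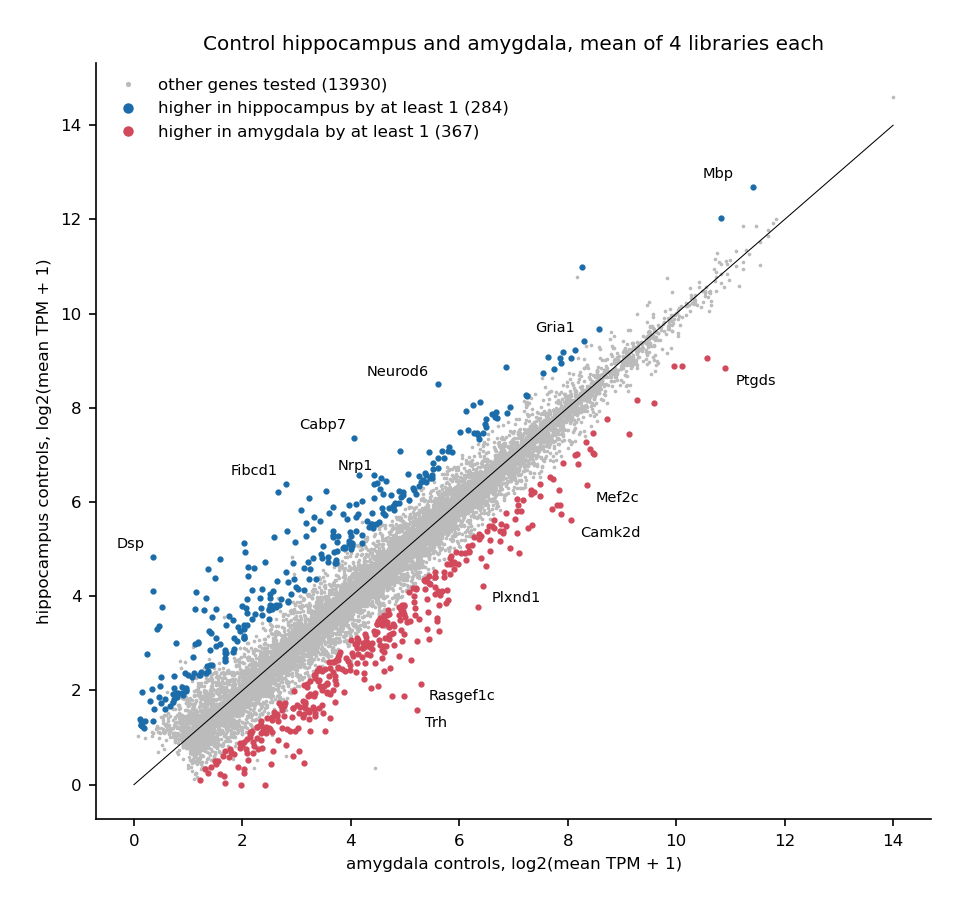
Mean level in the 4 amygdala controls (x axis) and the 4 hippocampus controls (y axis), each as log2(mean TPM + 1), for the 14581 genes tested; blue and red points passed the test with a difference of at least 1, and the line marks equal levels. The 284 blue and 367 red points include Dsp at the lower left and Mbp at the upper right.

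The genes with the largest excess in hippocampus included markers of its own cell fields. The largest differences in either direction were taken only from genes whose tissues did not overlap. Dsp encodes desmoplakin, a protein that anchors filaments at desmosomes, and within the hippocampus it marks dentate granule cells. It was at 30.6, 18.5, 28.8 and 32.9 TPM in hippocampus controls 1 to 4 and at 0.45, 0.19, 0.3 and 0.16 TPM in amygdala controls 1 to 4. Its log2 difference was 4.47 ± 0.17 (SE, adjusted p = 8.76e-07). Fibcd1, a chitin-binding receptor of CA1, was at 78.5, 89.2, 103 and 61.1 TPM in hippocampus controls 1 to 4 and at 4.89, 6.38, 7.96 and 4.64 TPM in amygdala controls 1 to 4, a log2 difference of 3.59 ± 0.18 (SE, adjusted p = 2.98e-06). Cabp7, a calcium-binding protein of the calmodulin family, varied little within a tissue, at 158, 166, 166 and 168 TPM in hippocampus and 15.3, 16.9, 17.6 and 12.9 TPM in amygdala, and differed by 3.32 ± 0.08 (SE, adjusted p = 1.51e-07). Neurod6, a basic helix-loop-helix transcription factor of pyramidal neurons, was the most abundant of these genes. Its levels were 359.8, 300.2, 399 and 393 TPM in hippocampus and 45.2, 44.1, 34.8 and 65.7 TPM in amygdala, and the difference was 2.94 ± 0.17 (SE, adjusted p = 5.87e-06). Prox1, the homeobox factor that fixes dentate granule cell identity, was at 84.3, 46.9, 64.5 and 70.2 TPM in hippocampus and 8.90, 8.29, 9.44 and 6.89 TPM in amygdala. Its lowest hippocampal value was in hippocampus control 2, and the difference was 2.82 ± 0.16 (SE, adjusted p = 5.87e-06). In whole tissue, more cells of a type and more RNA per cell cannot be told apart.

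Further genes of this rank spanned several functions. Mean levels were 12.7 against 0.438 TPM for Lefty1, a secreted inhibitor of Nodal signalling (difference 3.26 ± 0.13), and 26.7 against 1.99 TPM for Il16, whose product is a precursor of the cytokine interleukin 16 (difference 3.20 ± 0.11). Lct, the gene of the intestinal enzyme lactase, was at 22.4, 17.5, 19.96 and 31.3 TPM in hippocampus and 1.51, 1.08, 1.75 and 2 TPM in amygdala (difference 3.18 ± 0.18). Klk8, a secreted serine protease known for its part in hippocampal plasticity, averaged 19.97 ± 3.96 against 1.82 ± 0.564 TPM (SD, n = 4 per tissue). Homer3, a postsynaptic scaffold protein, averaged 55.8 ± 6.51 against 7.46 ± 1.19 TPM, Tspan18, a tetraspanin, 29.7 ± 5.67 against 3.14 ± 0.789 TPM, and Igfbpl1, a marker of immature granule cells, 16.02 ± 5.63 against 1.22 ± 0.245 TPM. Differences were 2.90, 2.75, 2.89 and 2.88 in that order. Adjusted p-values of the genes named in this paragraph lay between 3.83e-07 (Il16) and 4.94e-05 (Igfbpl1).

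On the amygdala side, the largest differences included genes of peptide-rich and striatum-like neurons. Trh, the precursor of thyrotropin-releasing hormone, was at 0.99, 6.04, 0.44 and 0.51 TPM in hippocampus controls 1 to 4 and at 8.78, 75.8, 39.03 and 20.6 TPM in amygdala controls 1 to 4. It varied by nearly an order of magnitude among amygdala libraries, and the log2 difference was -3.60 ± 0.67 (SE, adjusted p = 0.00331), or -4.12 without hippocampus control 2. Rasgef1c, a guanine nucleotide exchange factor for Ras-family proteins, was at 1.81, 7.37, 1.75 and 2.77 TPM in hippocampus and 37.6, 34.97, 32.4 and 47.1 TPM in amygdala. The difference was -3.29 ± 0.32 (SE, adjusted p = 0.000103), or -3.65 without hippocampus control 2. Glra3, a glycine receptor subunit, was at 0.82, 9.53, 1.06 and 1.57 TPM in hippocampus and 18.3, 24.6, 24.9 and 18.6 TPM in amygdala, and hippocampus control 2 stood above the other hippocampus libraries. Its difference was -2.82 ± 0.48 (SE, adjusted p = 0.00216), or -3.40 without that library. Camk2d, a subunit of the calcium- and calmodulin-dependent kinase II, was the most strongly expressed of the signalling genes in this group. It was at 30.9, 89.4, 31.6 and 39.4 TPM in hippocampus controls 1 to 4 and at 229, 322, 265 and 252 TPM in amygdala controls 1 to 4, with a difference of -2.59 ± 0.30 (SE, adjusted p = 0.000235), or -2.94 without hippocampus control 2.

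Others of the same rank were Otof, the calcium sensor of hair cell synapses, at 5.25 against 33.6 TPM on average, and Cartpt, a peptide precursor, at 5.62 against 28.6 TPM. Dkkl1, a secreted relative of the Dickkopf Wnt inhibitors, averaged 2.67 against 25.96 TPM. Drd1a, the dopamine receptor D1 under its older symbol, averaged 4.59 against 25.5 TPM, and Coch, a secreted matrix protein best known from the inner ear, 7.53 against 42.7 TPM. Their differences were -2.89 (Dkkl1), -2.88 (Otof), -2.66 (Cartpt), -2.43 (Drd1a) and -2.39 (Coch), with adjusted p-values from 1.55e-05 (Coch) to 0.00492 (Cartpt). Without hippocampus control 2 they were -3.12 (Dkkl1), -3.44 (Otof), -3.29 (Cartpt), -2.88 (Drd1a) and -2.55 (Coch). Ptgds makes prostaglandin D2 and is abundant in meninges and oligodendrocytes. It was at 159, 1156, 158 and 360.4 TPM in hippocampus controls 1 to 4 and at 2181, 2032, 2019 and 1417 TPM in amygdala controls 1 to 4, the highest level among genes higher in amygdala by at least 1. The value of hippocampus control 2 lay close to the lowest amygdala value, and the difference was -2.55 ± 0.55 (SE, adjusted p = 0.00703) with that library and -3.17 without it.

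**Figure D3:**
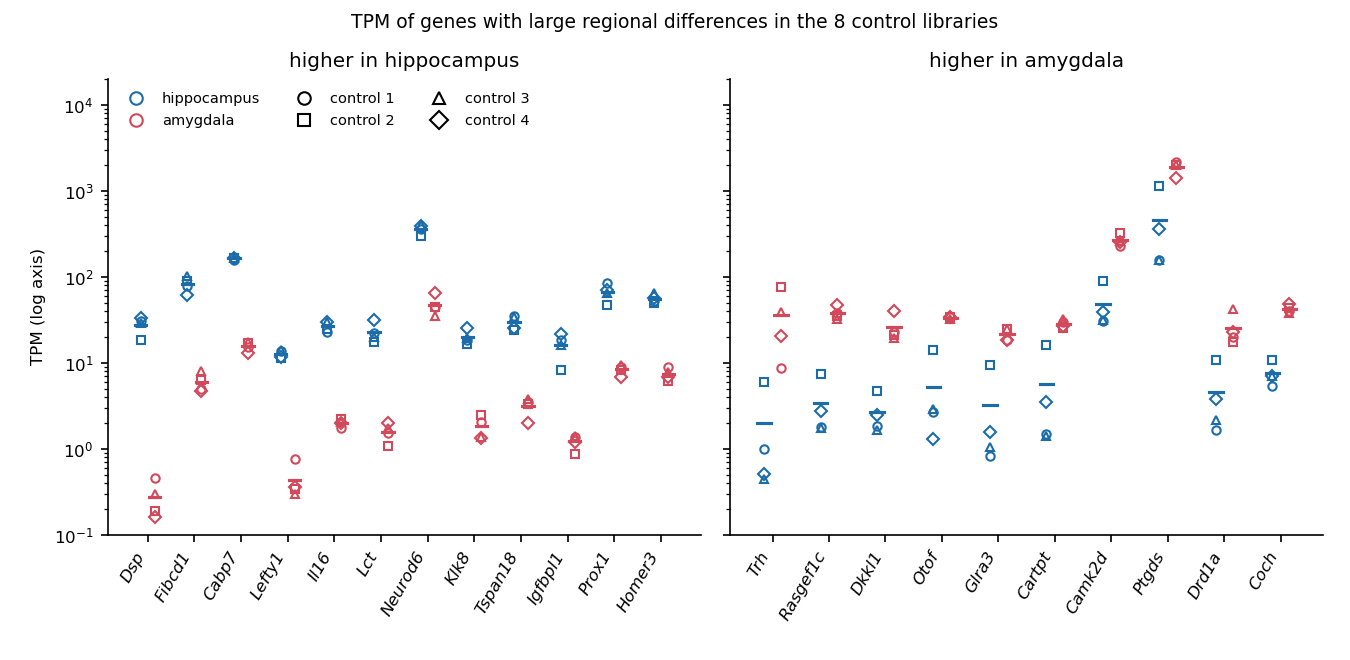
TPM (log axis) of 12 genes higher in hippocampus (left) and 10 higher in amygdala (right) in each control library; colours give the tissue, symbols the library and bars the mean of 4. On the left the spread of the hippocampus libraries differs by gene, with Cabp7 between 158 and 168 TPM and Igfbpl1 between 8.32 and 21.5 TPM. On the right hippocampus control 2 (square) is often the highest of the blue points.

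The sequence before the transcription start is shown for the 3 genes named above with the largest difference in each direction among those in the RefSeq promoter table, to set the DNA beside the genes that separate the tissues most. Each run holds the 250 bases before the first start listed, 5′ to 3′ on the gene's strand, on GRCm38.p6. Capitals mark CAGATG, an E-box of the kind that NEUROD factors bind. Both strands were searched. Besides the E-box, 3 further motifs were sought, none of which overlaps another here: the homeodomain core (TAATTA), a site of the nuclear factor I family (TTGGCA) and the classical promoter element known as the TATA box (TATAAA).
Dsp: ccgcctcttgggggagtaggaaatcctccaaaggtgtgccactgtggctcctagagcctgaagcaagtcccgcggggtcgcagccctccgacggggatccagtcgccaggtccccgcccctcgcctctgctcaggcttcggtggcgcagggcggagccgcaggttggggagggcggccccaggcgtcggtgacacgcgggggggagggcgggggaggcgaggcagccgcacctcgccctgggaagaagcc
Fibcd1: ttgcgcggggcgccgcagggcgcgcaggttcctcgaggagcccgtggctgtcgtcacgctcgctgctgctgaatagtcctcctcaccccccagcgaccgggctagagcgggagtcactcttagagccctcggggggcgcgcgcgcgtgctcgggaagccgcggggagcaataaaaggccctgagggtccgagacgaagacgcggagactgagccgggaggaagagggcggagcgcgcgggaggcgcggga
Cabp7: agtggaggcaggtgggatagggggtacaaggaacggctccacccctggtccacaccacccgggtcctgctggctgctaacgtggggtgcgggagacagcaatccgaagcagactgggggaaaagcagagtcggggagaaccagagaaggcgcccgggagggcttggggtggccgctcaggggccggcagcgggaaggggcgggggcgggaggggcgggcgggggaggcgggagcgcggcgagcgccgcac
Trh: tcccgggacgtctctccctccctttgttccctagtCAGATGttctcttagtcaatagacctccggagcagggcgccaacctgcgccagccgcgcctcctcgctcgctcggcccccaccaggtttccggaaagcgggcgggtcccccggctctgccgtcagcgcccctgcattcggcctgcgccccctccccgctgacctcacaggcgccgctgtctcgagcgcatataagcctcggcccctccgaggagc
Rasgef1c: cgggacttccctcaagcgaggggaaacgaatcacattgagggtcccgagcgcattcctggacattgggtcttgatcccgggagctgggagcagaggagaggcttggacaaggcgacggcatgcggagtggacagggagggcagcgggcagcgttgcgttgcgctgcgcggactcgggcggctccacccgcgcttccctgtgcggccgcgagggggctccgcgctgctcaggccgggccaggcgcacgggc
Dkkl1: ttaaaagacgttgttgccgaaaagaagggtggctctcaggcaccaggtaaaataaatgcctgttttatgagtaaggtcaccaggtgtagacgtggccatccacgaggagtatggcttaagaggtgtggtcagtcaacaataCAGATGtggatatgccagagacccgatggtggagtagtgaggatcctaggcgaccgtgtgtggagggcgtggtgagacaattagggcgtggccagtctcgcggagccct
The windows lie at chr13:38151044-38151293 (plus strand, Dsp), chr2:31846006-31846255 (minus, Fibcd1), chr11:4747180-4747429 (minus, Cabp7), chr6:92244651-92244900 (minus, Trh), chr11:49901585-49901834 (plus, Rasgef1c) and chr7:45211884-45212133 (minus, Dkkl1). On GRCm38 the genes themselves span Dsp on chromosome 13 from 38151294 to 38198577 on the plus strand; Fibcd1 on chromosome 2 from 31813290 to 31846005 on the minus strand; Cabp7 on chromosome 11 from 4736892 to 4746778 on the minus strand. Trh spans chromosome 6 from 92242061 to 92244650 on the minus strand, Rasgef1c chromosome 11 from 49901835 to 49980994 on the plus strand and Dkkl1 chromosome 7 from 45207519 to 45212147 on the minus strand. GC content was 72.4% for Dsp, 71.6% for Fibcd1, 72.4% for Cabp7, 68.8% for Trh and 70% for Rasgef1c, and 52.4% for Dkkl1. The Dkkl1 window lies inside the GENCODE span of that gene and the Cabp7 window apart from it, so the 2 annotations place these starts differently. The median over the 11532 tested genes with such a window was 60%. CAGATG occurred once in the Trh window and once in the Dkkl1 window, starting 215 and 109 bases before the start, and in none of the other 4. It occurred in 9.97% of all 11532 windows. The homeodomain core occurred in none of the 6 windows and in 2.26% of all windows. The nuclear factor I site also had no match, against 10% of all windows, and the TATA box none, against 6.43%. A match here describes letters only. Windows were found for 79.1% of the tested genes, too few to compare groups of genes.

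The genes known for dentate granule cells, CA1 and CA3 were mostly higher in hippocampus, while most of those for CA2 and hilar mossy cells were not. Of the genes listed for dentate granule cells, 10 of 14 were higher in hippocampus and 2 higher in amygdala, with a median difference of 1.11, against 13.5% and 19.1% of all genes tested and a median of -0.03. These values over all genes stand beside every list count below. C1ql2, a synaptic organizer that mossy fibres release, was at 57.5, 31.2, 34.1 and 40.4 TPM in hippocampus and 3.71, 5.49, 12.1 and 2.84 TPM in amygdala (difference 2.70 ± 0.35, adjusted p = 0.000482). Tdo2, which degrades tryptophan, averaged 14.6 against 1.53 TPM (difference 2.65 ± 0.34, adjusted p = 0.000426). The 2 members higher in amygdala were Calb1, the calcium buffer calbindin, at 107, 113, 117 and 86.96 TPM in hippocampus and 160.3, 270.0, 220.4 and 206 TPM in amygdala, and Plk5, a polo-like kinase, at 5.51 against 17.5 TPM. Neither overlapped between tissues, with differences of -0.99 ± 0.15 (adjusted p = 0.00105) and -1.52 ± 0.13 (adjusted p = 4.16e-05).

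Of the CA1 genes, 5 of 8 were higher in hippocampus and 1 higher in amygdala, with a median difference of 0.74. Spink8, a protease inhibitor gene, averaged 46.3 against 7.99 TPM (difference 2.42 ± 0.18, adjusted p = 2.18e-05), and the POU factor Pou3f1 53.7 against 11.1 TPM (difference 2.24 ± 0.27, adjusted p = 0.00033). Mpped1, often used as a CA1 marker, was at 152, 129, 147 and 105 TPM in hippocampus and 129, 133, 96.8 and 158 TPM in amygdala, and its difference of 0.05 ± 0.15 (adjusted p = 0.831) did not pass. Nov, a secreted matricellular protein, went the other way, at 181, 107, 171 and 53.8 TPM in hippocampus and 281, 439, 327 and 388 TPM in amygdala (difference -1.61 ± 0.34, adjusted p = 0.00637). The CA3 list had the highest median of all 50 lists. In it, 6 of 8 were higher in hippocampus and 0 higher in amygdala, with a median difference of 1.30. Grik4, a kainate receptor subunit of mossy fibre synapses, was at 50.98, 49.1, 59.8 and 51.8 TPM in hippocampus and 15.6, 11.3, 13.8 and 13.1 TPM in amygdala. Its difference was 1.91 ± 0.10 (adjusted p = 2.98e-06). Bok, a BCL2-family protein, was at 74.2, 73.9, 96.3 and 98.3 TPM in hippocampus and 24.3, 21.4, 24.1 and 26.1 TPM in amygdala (difference 1.79 ± 0.11, adjusted p = 6.93e-06), and Iyd, which recovers iodide from iodotyrosines, averaged 12.2 against 1.18 TPM (difference 2.57 ± 0.15, adjusted p = 6.06e-06). Without hippocampus control 3, 1 gene of this list was higher in amygdala. Of the CA2 genes, 2 of 6 were higher in hippocampus and 1 higher in amygdala, with a median difference of -0.09. Amigo2, an adhesion protein, averaged 30.2 against 12.3 TPM (difference 1.22 ± 0.24, adjusted p = 0.00457), while Pcp4, a calmodulin regulator, was at 471 against 1001 TPM (difference -1.12 ± 0.18, adjusted p = 0.00171). Pcp4 shares its strand with the overlapping gene Igsf5, so its value is uncertain. The CA2 counts were 1 in hippocampus without any 1 of 6 libraries (hippocampus controls 1 to 4 and amygdala controls 1 and 3), and 3 in amygdala without hippocampus control 4. Of 5 genes of hilar mossy cells, 1 (20%, against 13.5% of all genes) was higher in hippocampus and 0 in amygdala, with a median difference of -0.07. The other 4 did not pass, and the count in amygdala was 1 without amygdala control 4.

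Lists for the amygdala's nuclei had negative medians, that is, toward amygdala. Medians were -0.83 for 7 basolateral genes, -1.02 for 13 of the central nucleus, -0.69 for the 10 tested of 14 of the medial nucleus and -1.43 for 6 of the intercalated cells. Counts higher in amygdala were 4 of 7, 9 of 13, 5 of 10 and 5 of 6. Of these 4 lists the medial one also held members higher in hippocampus, 2 of 10. Its count higher in amygdala was 3 without hippocampus control 1 or without amygdala control 3. In hippocampus, 1 basolateral gene was higher without hippocampus control 4 and 1 central gene without hippocampus control 1. Among basolateral genes, Tfap2d, a transcription factor, was at 0.08, 0.67, 0 and 0 TPM in hippocampus and 2.33, 2.63, 2.83 and 4.45 TPM in amygdala (difference -1.78 ± 0.22, adjusted p = 0.000332). Lmo3, a LIM-domain cofactor, averaged 155 ± 3.09 against 278 ± 31.2 TPM (difference -0.83 ± 0.07, adjusted p = 5.64e-05), and Nr2f2, an orphan nuclear receptor, 26.99 ± 18.4 against 83.6 ± 17.01 TPM (difference -1.81 ± 0.40, adjusted p = 0.00782). Rspo2, a Wnt agonist, and Etv1, an ETS factor, are used to mark basolateral neurons, yet the tissues overlapped. Rspo2 was at 13.3, 10.5, 11.4 and 5.96 TPM in hippocampus and 9.21, 9.74, 8.16 and 11.6 TPM in amygdala and its difference was 0.04 ± 0.21 (adjusted p = 0.895). Etv1 averaged 70.2 against 71.1 TPM (difference -0.03 ± 0.17, adjusted p = 0.897).

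In the central and intercalated lists, the peptide gene Crh, the precursor of corticotropin-releasing hormone, was at 2.92, 4.78, 2.78 and 2.25 TPM in hippocampus and 7.53, 9.34, 8.26 and 7.46 TPM in amygdala. Tac2, the neurokinin B precursor, averaged 16.1 against 32.7 TPM, and Pdyn, the dynorphin precursor, 10.3 against 22.7 TPM. Differences were -1.16 ± 0.17 (adjusted p = 0.000916) for Crh, -1.07 ± 0.26 (adjusted p = 0.0135) for Tac2 and -1.05 ± 0.23 (adjusted p = 0.00744) for Pdyn. Prkcd, a kinase that defines a class of central amygdala neurons and is also strong in thalamus, had its highest value in hippocampus control 4, with 18.4, 35.1, 35.4 and 98.1 TPM in hippocampus and 20.1, 13.8, 17.8 and 18.04 TPM in amygdala. It did not pass (difference 1.12 ± 0.40, adjusted p = 0.0587). Without hippocampus control 1 it passed, at 1.47 (adjusted p = 0.0136). Foxp2, a forkhead factor of intercalated and striatal neurons, was at 0.46, 5.66, 0.6 and 1.59 TPM in hippocampus and 10.1, 4.18, 15.7 and 8.43 TPM in amygdala. Hippocampus control 2 overlapped the amygdala values, and the difference was -1.95 ± 0.50 (adjusted p = 0.015), or -2.42 without it. Meis2 and Pbx3, homeobox factors of striatum-like neurons, averaged 29.5 against 71.8 TPM and 8.21 against 25.6 TPM (differences -1.28 ± 0.18, adjusted p = 0.000817, and -1.58 ± 0.30, adjusted p = 0.00355). Tshz1, a zinc finger factor that intercalated cells need, averaged 16.2 against 31.2 TPM (difference -0.92 ± 0.14, adjusted p = 0.000992). The mu opioid receptor gene Oprm1 was low in both tissues, at 0.552 against 1.34 TPM, and did not pass (difference -0.59 ± 0.23, adjusted p = 0.0818). Oprm1 passed without hippocampus control 2, at -0.75 (adjusted p = 0.035), and without amygdala control 4, at -0.77 (adjusted p = 0.0291). Lhx9, a LIM homeobox factor listed for the medial nucleus, was higher in hippocampus, at 12.4 against 4.07 TPM (difference 1.47 ± 0.22, adjusted p = 0.00117).

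Genes of striatal projection neurons, cells that lie close to the central nucleus, were higher in amygdala in 12 of 23 cases. The list had 1 member higher in hippocampus and a median of -0.96. Penk, the enkephalin precursor, was at 21.9, 174, 17.7 and 26.9 TPM in hippocampus controls 1 to 4 and at 215, 131, 382 and 193 TPM in amygdala controls 1 to 4. The tissues overlapped through hippocampus control 2. The difference was -2.50 ± 0.65 (SE, adjusted p = 0.0164) with that library and -3.23 without it. Tac1, the substance P precursor, averaged 23.8 against 89.4 TPM (difference -2.09 ± 0.45, adjusted p = 0.00693, -2.57 without hippocampus control 2). Ppp1r1b, the dopamine-regulated phosphatase inhibitor DARPP-32, averaged 60.3 against 221 TPM (difference -1.88 ± 0.41, adjusted p = 0.00725), and Gpr52, a receptor of indirect-pathway neurons, 3.73 against 17.96 TPM (difference -2.11 ± 0.34, adjusted p = 0.00149, -2.46 without hippocampus control 2). The adenosine receptor gene Adora2a and the dopamine receptor gene Drd2, both of indirect-pathway neurons, did not pass with all 8 libraries. Adora2a, picked for the text with its values known, was at 1.83, 19.2, 2.45 and 2.29 TPM in hippocampus and 17.8, 2.21, 37.4 and 17.03 TPM in amygdala (difference -1.50 ± 0.81, adjusted p = 0.188). It passed without hippocampus control 2, at -2.17 (adjusted p = 0.0436), and without amygdala control 2, at -2.22 (adjusted p = 0.0347). Drd2 averaged 5.10 against 12.3 TPM (difference -1.09 ± 0.53, adjusted p = 0.147). Scn4b, a sodium channel beta subunit of striatal neurons, varied widely, at 10.4, 15.7, 9.55 and 13.2 TPM in hippocampus and 9.37, 2.69, 70.96 and 22.5 TPM in amygdala. The value of amygdala control 3 was above all others, and the difference of -0.30 ± 0.74 (adjusted p = 0.792) did not pass. Lrrc10b, listed for striatum, was instead higher in hippocampus, at 55.8, 55.6, 56.9 and 66.8 TPM in hippocampus and 7.43, 5.55, 21.2 and 13 TPM in amygdala (difference 2.38 ± 0.32, adjusted p = 0.000597).

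Of 14 tested of 20 hypothalamic genes, 5 were higher in amygdala and 0 in hippocampus, with a median of -1.59. The first count was 8 without amygdala control 4, and the second was 1 without amygdala control 1. Besides Trh these were Zcchc12, Hap1, Baiap3 and Ngb. Zcchc12 averaged 75.5 against 228 TPM and Hap1, which binds huntingtin, 130.4 against 353 TPM (differences -1.72 ± 0.32, adjusted p = 0.00317, and -1.58 ± 0.34, adjusted p = 0.00697). Baiap3, a factor in dense-core vesicle release, was at 1.65, 39.3, 4.82 and 7.76 TPM in hippocampus and 59.6, 55.4, 63.4 and 33.8 TPM in amygdala, with a difference of -2.61 ± 0.68 (adjusted p = 0.0167), or -3.36 without hippocampus control 2. Ngb, the oxygen-binding protein neuroglobin, averaged 5.75 against 19.5 TPM (difference -1.92 ± 0.47, adjusted p = 0.013). Avp, the vasopressin precursor, was at 0.4, 0.73, 0 and 0 TPM in hippocampus and 40, 2.31, 40.7 and 0.33 TPM in amygdala. It was high in amygdala controls 1 and 3 and near 0 in amygdala control 4, and did not pass (difference -2.90 ± 1.03, adjusted p = 0.0575). Avp passed without amygdala control 2, at -3.40 (adjusted p = 0.0461), and without amygdala control 4, at -3.84 (adjusted p = 0.0105).

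Transcription factors of the pallium, the cortical part of the forebrain, were divided between the tissues. Of 29 such genes, 14 were higher in hippocampus and 9 in amygdala, with a median of 0.43. Zbtb20, a zinc finger repressor required for hippocampal identity, was at 45.5, 42.9, 48.4 and 52.6 TPM in hippocampus and 9.88, 10.8, 9.71 and 8.53 TPM in amygdala. The tissues lay far apart, with a difference of 2.17 ± 0.09 (SE, adjusted p = 9.78e-07). Nfix, of the nuclear factor I family, averaged 183 ± 20.04 against 70.5 ± 6.28 TPM (difference 1.36 ± 0.09, adjusted p = 1.08e-05). Mef2c, an activity-regulated factor that limits synapse number, was at 78.9, 95.8, 73.1 and 74.8 TPM in hippocampus and 311, 317, 273 and 401 TPM in amygdala. Its difference was -1.99 ± 0.12 (SE, adjusted p = 6.81e-06). Cux2, a factor of upper cortical layers, averaged 13.7 against 34.8 TPM and Tbr1, a T-box factor of glutamatergic neurons, 36.1 against 81.8 TPM (differences -1.28 ± 0.18, adjusted p = 0.000723, and -1.13 ± 0.15, adjusted p = 0.00048). Factors of the subpallium, the source of inhibitory and striatal neurons, differed in 1 direction. Of 30 tested, 14 were higher in amygdala and 0 in hippocampus (median -0.47). The count in hippocampus was 1 without hippocampus control 2 or 4 and with either of the other scalings (quantile, median of ratios). Of 15 cortical layer genes, 2 were higher in hippocampus and 10 in amygdala, with a median difference of -0.71. The first count was 1 when any library but amygdala control 3 was left out. Among the 10, Ctgf, a matrix protein of deep cortical cells, averaged 10.1 against 33.2 TPM and Lamp5, a membrane protein of superficial neurons and of one interneuron class, 39.6 against 111 TPM (differences -1.71 ± 0.29, adjusted p = 0.00193, and -1.46 ± 0.12, adjusted p = 4.65e-05).

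**Figure D4:**
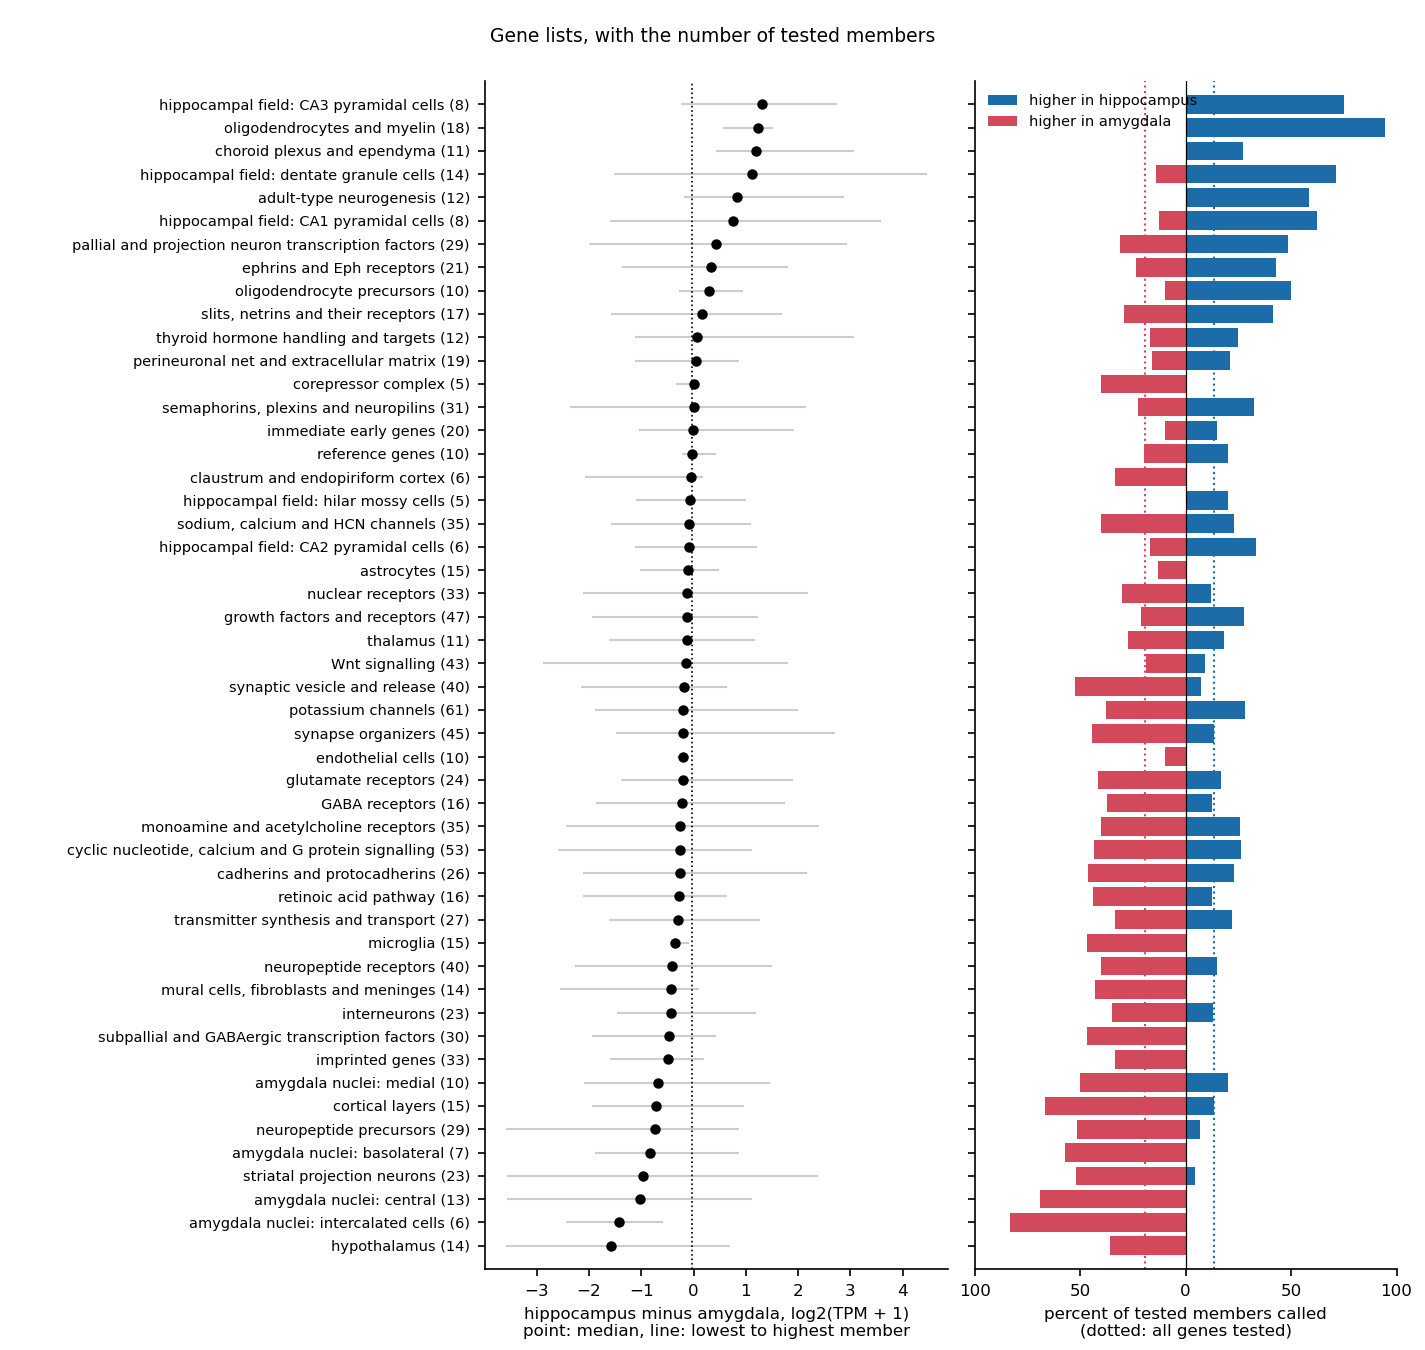
Left, for each of 50 gene lists, with the number of tested members, the median (point) and the lowest and highest (line) difference between hippocampus and amygdala on the log2(TPM + 1) scale; the dotted line is the median of all genes; right, percent of tested members called in each direction, with dotted lines at 13.5% and 19.1%, the shares over all genes. The CA3, myelin, choroid plexus and dentate lists have the highest medians and the hypothalamic and intercalated lists the lowest.

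Inhibitory interneuron genes differed in both directions, and 12 of 23 did not pass. Of all 23, 3 were higher in hippocampus and 8 in amygdala (median -0.44). Pvalb, the calcium buffer of fast-spiking cells, was at 56.9, 43.96, 55.4 and 57.3 TPM in hippocampus and 26.1, 14.6, 22.5 and 29.9 TPM in amygdala, a difference of 1.20 ± 0.19 (adjusted p = 0.00141). Vip and Npy, peptide precursors of other interneuron classes, were higher in amygdala, at 23.05 against 58.5 TPM and 196 against 345 TPM (differences -1.32 ± 0.19, adjusted p = 0.000746, and -0.82 ± 0.14, adjusted p = 0.00247). Gad1, which makes GABA in all of them, averaged 286 against 315 TPM and did not pass (difference -0.13 ± 0.09, adjusted p = 0.316). Among 29 tested of 40 neuropeptide precursors, 15 were higher in amygdala and 2 in hippocampus, with a median of -0.74. The latter count was 0 without amygdala control 3 and 1 without any other library. Adcyap1, the precursor of the stress peptide PACAP, was at 6.97, 13.02, 7.21 and 2.89 TPM in hippocampus and 21.3, 27.01, 25.1 and 26.9 TPM in amygdala (difference -1.75 ± 0.32, adjusted p = 0.00282).

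Peptide receptors showed both directions, with 6 of 40 tested higher in hippocampus and 16 in amygdala (median -0.41). Npy2r, a presynaptic neuropeptide Y receptor, was at 49.1, 56.5, 67.1 and 58.4 TPM in hippocampus and 16.1, 28.02, 28.8 and 18.2 TPM in amygdala, and Sstr4, a somatostatin receptor, averaged 37.8 ± 3.10 against 12.6 ± 1.02 TPM. Their differences were 1.34 ± 0.18 (adjusted p = 0.000659) and 1.51 ± 0.08 (adjusted p = 3.26e-06). The ligand Npy thus had its higher mean in amygdala and the receptor Npy2r in hippocampus. Cckbr, the main brain receptor for cholecystokinin, was at 7.79, 15.3, 7.88 and 9.45 TPM in hippocampus and 44.4, 55.99, 36.03 and 52.02 TPM in amygdala, and its difference was -2.14 ± 0.21 (adjusted p = 9.9e-05). Oprk1, the kappa opioid receptor, averaged 1.86 against 10.2 TPM (difference -2.07 ± 0.36, adjusted p = 0.0023). Its ligand precursor Pdyn had the same direction.

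Receptors for monoamines and acetylcholine were divided between the tissues. Of 35 tested of 41, 9 were higher in hippocampus and 14 in amygdala (median -0.26), and 7 and 8 of these reached a difference of 1. Close relatives among the dopamine and adrenergic receptors went opposite ways. Drd5, a D1-like dopamine receptor, was at 14.1, 8.52, 10.7 and 9.76 TPM in hippocampus and 1.81, 1.06, 2.56 and 1.42 TPM in amygdala, a difference of 2.12 ± 0.19 (adjusted p = 6.87e-05), while Drd1a differed by -2.43 ± 0.44 (adjusted p = 0.00305). Adra1d, an alpha-1 adrenergic receptor, was at 51.03, 43.5, 58.2 and 49.8 TPM in hippocampus and 8.58, 8.64, 6.37 and 12.3 TPM in amygdala, a difference of 2.40 ± 0.16 (adjusted p = 1.29e-05). Adra1b, of the same subfamily, averaged 2.93 against 10.7 TPM (difference -1.59 ± 0.12, adjusted p = 2.97e-05). Chrm3, a muscarinic receptor, averaged 52.1 against 23.8 TPM (difference 1.10 ± 0.09, adjusted p = 4.18e-05). Higher in amygdala were Htr2c, a serotonin receptor, at 37.7, 64.1, 33.5 and 28.5 TPM in hippocampus and 96.7, 115, 130.4 and 101 TPM in amygdala (difference -1.47 ± 0.21, adjusted p = 0.000904), and Hrh1, a histamine receptor, at 3.67 against 12.1 TPM (difference -1.56 ± 0.27, adjusted p = 0.00204).

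Of 24 tested glutamate receptor genes, 4 were higher in hippocampus and 10 in amygdala, with a median difference of -0.21. Gria1, the AMPA receptor subunit that is added to synapses in potentiation, was at 692, 615, 746 and 699 TPM in hippocampus and 286, 341, 338 and 288 TPM in amygdala. Its difference was 1.13 ± 0.08 (SE, adjusted p = 1.57e-05). Gria2, the subunit that makes AMPA receptors impermeable to calcium, averaged 527 against 469.8 TPM and did not pass (difference 0.17 ± 0.06, adjusted p = 0.0615). Gria2 passed without hippocampus control 2, at 0.20 (adjusted p = 0.0396). Grin3a, an NMDA receptor subunit of the young brain, averaged 25.6 against 58.9 TPM and Grm8, a presynaptic metabotropic receptor, 5.13 against 14.4 TPM (differences -1.21 ± 0.18, adjusted p = 0.000968, and -1.39 ± 0.22, adjusted p = 0.00151). Grin3a contains the gene Ppp3r2 on its strand, so reads there could be assigned to either.

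Alpha subunits of the GABA-A receptor differed in opposite directions. Gabra5, the subunit of extrasynaptic hippocampal receptors, was at 283, 230.2, 314 and 278 TPM in hippocampus controls 1 to 4 and at 71.8, 92.5, 75.3 and 88.3 TPM in amygdala controls 1 to 4. Its difference was 1.74 ± 0.11 (SE, adjusted p = 7.43e-06). Gabra3 was at 39.6, 69.1, 38.2 and 32.5 TPM in hippocampus controls 1 to 4 and at 138, 185, 158 and 164 TPM in amygdala controls 1 to 4, with a difference of -1.88 ± 0.20 (SE, adjusted p = 0.000165). For both, the tissues did not overlap. Gabrd, the delta subunit of tonic inhibition, averaged 19.4 against 40.7 TPM and Gabrg1, a gamma subunit, 17.03 against 34.6 TPM (differences -1.03 ± 0.10, adjusted p = 8.1e-05, and -1.03 ± 0.21, adjusted p = 0.00557). Over the 16 tested GABA receptor genes, 2 were higher in hippocampus and 6 in amygdala (median -0.23).

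Of the vesicular glutamate transporters, Slc17a7 averaged 1341 against 1306 TPM and did not pass (difference 0.06 ± 0.13, adjusted p = 0.776), while Slc17a6, which prevails in subcortical neurons, was at 16.99, 21.4, 9.27 and 16.99 TPM in hippocampus and 45.6, 49.7, 63.3 and 42.9 TPM in amygdala (difference -1.62 ± 0.22, adjusted p = 0.00061). Slc30a3, which loads zinc into glutamatergic vesicles, was at 60.97, 53.8, 55.9 and 49.1 TPM in hippocampus and 128, 169, 108 and 156 TPM in amygdala, a difference of -1.32 ± 0.13 (adjusted p = 0.000109). Among 40 genes of synaptic vesicles and release, 21 were higher in amygdala and 3 in hippocampus, with a median of -0.19. Without amygdala control 3, 5 were higher in hippocampus. Stx1a, a syntaxin of the fusion complex, was at 108, 129, 117 and 93.5 TPM in hippocampus and 300.2, 296, 226 and 343 TPM in amygdala (difference -1.37 ± 0.13, adjusted p = 9.46e-05). Its partner Snap25 and the calcium sensor Syt1 did not pass, Syt1 at 1087 against 1051 TPM (difference 0.05 ± 0.07, adjusted p = 0.608), a value that is uncertain because Gm5136 overlaps it. Unc13c, a vesicle priming factor, averaged 8.81 against 41.6 TPM (difference -2.15 ± 0.21, adjusted p = 0.000112).

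Subunits of calcium- and calmodulin-dependent kinase II likewise differed in opposite directions. Camk2a averaged 2485 ± 169 against 1735 ± 230.5 TPM and Camk2b 1022 ± 72.4 against 617 ± 22.6 TPM (SD, n = 4 per tissue), both higher in hippocampus by 0.53 ± 0.10 (adjusted p = 0.00339) and 0.72 ± 0.06 (adjusted p = 3.59e-05). Camk2d was higher in amygdala by the values above. Camk2a was picked for the text with its values known. The catalytic calcineurin gene Ppp3ca averaged 1736 against 915 TPM, the protein kinase C gene Prkca 172 against 80.1 TPM and the calcium-stimulated adenylyl cyclase gene Adcy1 310.5 against 154 TPM, all higher in hippocampus (0.92 ± 0.07, adjusted p = 3.02e-05, 1.09 ± 0.11, adjusted p = 0.000103, and 0.99 ± 0.14, adjusted p = 0.000639). In the whole signalling list of 53, 14 were higher in hippocampus and 23 in amygdala, with a median difference of -0.26.

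Potassium channel genes differed in both directions. Of 61 tested, 17 were higher in hippocampus and 23 in amygdala, with a median difference of -0.20. Kcng2, a modifier of Kv2 channels, averaged 16.5 against 3.55 TPM (difference 1.99 ± 0.19, adjusted p = 8.47e-05). Kcnf1, another such modifier, averaged 35.1 against 107 TPM and Kcnh4, of the ether-a-go-go family, 1.62 against 8.32 TPM, both higher in amygdala (-1.60 ± 0.17, adjusted p = 0.000171, and -1.88 ± 0.20, adjusted p = 0.000158). Of 35 sodium, calcium and HCN channel genes, 8 were higher in hippocampus and 14 in amygdala, with a median difference of -0.08. Cacng8 and Cacng3 encode related auxiliary subunits of AMPA receptors. Cacng8 averaged 219.8 ± 15.2 against 103 ± 9.91 TPM and Cacng3 68.6 ± 4.93 against 177 ± 21.6 TPM, so they differed in opposite directions (1.09 ± 0.08, adjusted p = 1.4e-05, and -1.35 ± 0.09, adjusted p = 1.04e-05). Hcn4, a pacemaker channel, averaged 1.86 against 7.25 TPM (difference -1.58 ± 0.21, adjusted p = 0.000547).

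Axon guidance genes differed in both directions. Semaphorins of class 3 signal through neuropilins and plexins, and Sema3e can bind the plexin encoded by Plxnd1 directly. Sema3e was at 41.8, 42.1, 43.4 and 40.7 TPM in hippocampus and 7.61, 7.32, 11.5 and 9.08 TPM in amygdala, a difference of 2.14 ± 0.12 (SE, adjusted p = 4.67e-06). Its receptor gene Plxnd1 was at 18.6, 19.6, 16.03 and 16.5 TPM in hippocampus and 78.9, 90.02, 74.2 and 101 TPM in amygdala, a difference of -2.22 ± 0.10 (SE, adjusted p = 1.77e-06). The ligand was thus higher in hippocampus and the receptor in amygdala. For the ligand Sema3a and the neuropilin Nrp1, through which it acts, the order was reversed. Sema3a was at 2.76, 8.70, 2.18 and 3.55 TPM in hippocampus and 22.8, 22.99, 25.5 and 23.1 TPM in amygdala (difference -2.36 ± 0.29, SE, adjusted p = 0.000372). Nrp1 was at 91.2, 84.99, 98.3 and 85.96 TPM in hippocampus and 21.97, 24.7, 22.2 and 21.4 TPM in amygdala (difference 1.95 ± 0.06, SE, adjusted p = 3.83e-07). None of the 4 genes overlapped between tissues. In the whole family of 31, 10 were higher in hippocampus and 7 in amygdala, with a median difference of 0.01.

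Of 21 tested ephrins and Eph receptors, 9 were higher in hippocampus and 5 in amygdala, with a median difference of 0.34. The receptors Epha4 and Epha7 were higher in hippocampus, at 265 ± 35.2 against 75.3 ± 7.22 TPM and 135 ± 26.9 against 54.3 ± 6.36 TPM (differences 1.80 ± 0.10, adjusted p = 4.63e-06, and 1.29 ± 0.14, adjusted p = 0.000157). The ligands Efna5 and Efnb2 were higher in amygdala, at 6.71 ± 2.38 against 18.2 ± 2.07 TPM and 29.1 ± 8.54 against 67.5 ± 5.33 TPM (differences -1.36 ± 0.20, adjusted p = 0.000946, and -1.23 ± 0.19, adjusted p = 0.00117). The family did not split by role, since other ligands were called higher in hippocampus and a receptor higher in amygdala. Of 17 genes of the slit and netrin systems, 7 were higher in hippocampus and 5 in amygdala, with a median difference of 0.17. These counts were 4 in hippocampus without hippocampus control 3 or without amygdala control 4, and 3 in amygdala without amygdala control 3. The repellent Slit1 averaged 121 against 47.7 TPM and the divergent receptor Robo3 14.7 against 3.99 TPM, higher in hippocampus by 1.35 ± 0.13 (adjusted p = 8.46e-05) and 1.70 ± 0.28 (adjusted p = 0.00168). Unc5d, a netrin receptor, averaged 16.3 against 47.95 TPM (difference -1.58 ± 0.23, adjusted p = 0.000843).

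Of 26 cadherins and protocadherins, 6 were higher in hippocampus and 12 in amygdala, with a median difference of -0.27. The largest difference among the 6 was that of Pcdh20, a protocadherin, at 86.6, 88.02, 103 and 98.3 TPM in hippocampus and 14.1, 26.1, 23.6 and 18.3 TPM in amygdala. Its difference was 2.17 ± 0.16 (adjusted p = 2.39e-05). Cdh4, Cdh22 and Cdh13, classical and atypical cadherins, averaged 10.6 against 47.3 TPM, 10.5 against 37.3 TPM and 55.01 against 132 TPM, with differences of -2.12 ± 0.22 (adjusted p = 0.000148), -1.77 ± 0.15 (adjusted p = 5.73e-05) and -1.27 ± 0.14 (adjusted p = 0.000197). Of 45 tested synapse organizers, 6 were higher in hippocampus and 20 in amygdala, with a median difference of -0.20. Nptx1, a pentraxin that clusters AMPA receptors, averaged 311 against 168 TPM and Lrrtm3, a postsynaptic adhesion protein, 14.5 against 41.1 TPM (differences 0.91 ± 0.13, adjusted p = 0.000938, and -1.48 ± 0.16, adjusted p = 0.000168). Among secreted Dickkopf-type proteins, Dkk3 was at 267, 216, 251 and 235 TPM in hippocampus and 70.5, 68.3, 55.5 and 80.7 TPM in amygdala (difference 1.81 ± 0.11, adjusted p = 6.55e-06), opposite in direction to Dkkl1 above.

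NCoR1 and SMRT are corepressors that nuclear receptors recruit to their target genes. Of 33 tested, 4 were higher in hippocampus and 10 in amygdala, with a median difference of -0.12. Nr3c2, the mineralocorticoid receptor known for its density in hippocampus, was at 143, 111, 144 and 145 TPM in hippocampus controls 1 to 4 and at 24.8, 30.3, 33.6 and 27.6 TPM in amygdala controls 1 to 4. Its difference was 2.18 ± 0.11 (SE, adjusted p = 2.98e-06). Nr4a3, an orphan receptor induced by activity, averaged 64.05 ± 6.49 against 17.6 ± 9.29 TPM (difference 1.91 ± 0.26, adjusted p = 0.000574). Rxrg, a retinoid X receptor, was at 2.58, 11.3, 4.24 and 1.75 TPM in hippocampus and 16.8, 20.9, 25.8 and 20.2 TPM in amygdala, and its difference was -2.11 ± 0.40 (adjusted p = 0.00345), or -2.54 without hippocampus control 2. For the thyroid hormone receptors, Thra averaged 632 ± 71.7 against 585 ± 36.2 TPM and did not pass (0.10 ± 0.08, adjusted p = 0.375), and Thrb averaged 20.02 ± 1.73 against 28.9 ± 3.58 TPM and was higher in amygdala (-0.51 ± 0.10, adjusted p = 0.00361). Crym, which binds thyroid hormone in the cytosol, was at 422, 404, 504 and 260.2 TPM in hippocampus and 182, 262, 202 and 188 TPM in amygdala. Its groups overlapped by a single pair of values, and the difference was 0.90 ± 0.19 (adjusted p = 0.00616). Over 12 genes of thyroid hormone handling, 3 were higher in hippocampus and 2 in amygdala, with a median difference of 0.06. That is 25% and 16.7% of the list, against 13.5% and 19.1% of all genes. Of the 5 corepressor complex genes, 2 were higher in amygdala, both by less than 1, and the other 3, among them Ncor1, did not pass. The count was 1 without hippocampus control 4.

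In the retinoic acid pathway, 7 of 16 tested genes were higher in amygdala and 2 in hippocampus (median -0.28). The count of 2 was 1 without hippocampus control 1 or 4 or amygdala control 2 or 3. Aldh1a2, which makes retinoic acid and in adult brain is prominent in meninges, averaged 4.51 against 13.3 TPM, and Rbp4, the plasma carrier of retinol, 9.42 against 22.9 TPM (differences -1.45 ± 0.24, adjusted p = 0.00164, and -1.21 ± 0.28, adjusted p = 0.0106). Among 47 tested growth factor genes, 13 were higher in hippocampus and 10 in amygdala, with a median difference of -0.12. Fgfr1, a fibroblast growth factor receptor, averaged 87.8 against 39.4 TPM and the neurotrophin gene Bdnf 39.5 against 22.2 TPM, both higher in hippocampus (1.14 ± 0.08, adjusted p = 1.16e-05, and 0.86 ± 0.19, adjusted p = 0.00806). Bmp3, of the bone morphogenetic protein family, averaged 4.17 against 17.9 TPM (difference -1.94 ± 0.24, adjusted p = 0.000352).

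Imprinted genes, expressed from 1 parental copy, were higher in amygdala where they passed. Of 33 tested of 34, 11 were higher there and 0 in hippocampus, with a median of -0.48. Without hippocampus control 2 the counts were 20 and 0, and without amygdala control 3 the count in hippocampus was 1. Mest averaged 32.3 against 70.6 TPM, Grb10, an adaptor of insulin signalling in neurons, 26.9 against 55.9 TPM, and Kcnk9, a background potassium channel, 29.7 against 60.3 TPM. Their differences were -1.14 ± 0.21 (adjusted p = 0.0033), -1.11 ± 0.25 (adjusted p = 0.00864) and -1.05 ± 0.18 (adjusted p = 0.00233). Snrpn, one of the most abundant imprinted transcripts of brain, averaged 1116 against 1060.4 TPM and did not pass (difference 0.07 ± 0.04, adjusted p = 0.211). Its value is uncertain, since Snurf overlaps it on the same strand.

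Genes of adult-type neurogenesis, a process that goes on in the dentate gyrus, were higher in hippocampus for 7 of 12 and higher in amygdala for 0, with a median of 0.82. Eomes, the T-box factor of intermediate progenitors, was at 2.21, 1.33, 1.80 and 6.92 TPM in hippocampus and 0.35, 0.21, 0.26 and 0.21 TPM in amygdala. It was low throughout, and its difference was 1.51 ± 0.33 (adjusted p = 0.00751). Hopx, a marker of dentate stem cells that astrocytes express as well, averaged 127 ± 23.3 against 65.3 ± 8.67 TPM (difference 0.94 ± 0.14, adjusted p = 0.000842). Dcx, the microtubule protein of immature neurons, averaged 25.6 against 28.97 TPM and did not pass (difference -0.18 ± 0.12, adjusted p = 0.279).

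Myelin genes were higher in hippocampus nearly throughout. Of 18 oligodendrocyte genes, 17 were higher in hippocampus, 15 of them by at least 1, and none in amygdala (median 1.24). Mbp, myelin basic protein, was the most abundant gene with a difference of at least 1, at 5010.2, 5775, 6399.8 and 9336 TPM in hippocampus controls 1 to 4 and at 4458, 1200.5, 3309 and 1929 TPM in amygdala controls 1 to 4. Hippocampus control 4 was highest and amygdala control 2 lowest, and hippocampus control 1 and amygdala control 1 lay close together. The difference was 1.41 ± 0.37 (SE, adjusted p = 0.0174). With quantile-normalized values it did not pass (adjusted p = 0.0775). Mobp was at 388, 548, 453 and 758 TPM in hippocampus and 316, 98.2, 220.3 and 154 TPM in amygdala (difference 1.52 ± 0.33, adjusted p = 0.00732), Cldn11 averaged 583 against 239 TPM, Mag 428 against 185 TPM and Opalin 97.4 against 40.03 TPM, with differences of 1.38 ± 0.34 (adjusted p = 0.0139), 1.31 ± 0.34 (adjusted p = 0.0155) and 1.38 ± 0.35 (adjusted p = 0.0156). The summed level of the 3 myelin markers was 8456, 9619.6, 10438 and 15570.3 TPM in hippocampus and 7537, 2066, 5596 and 3364 TPM in amygdala. The count of 17 was 11 without hippocampus control 4 and 10 without amygdala control 4. Of 10 genes of oligodendrocyte precursors, 5 were higher in hippocampus and 1 in amygdala. The first count was 3 without hippocampus control 1 or 3, and 2 without hippocampus control 4 or any of amygdala controls 2, 3 and 4.

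Microglial genes were slightly lower in hippocampus, with 7 of 15 higher in amygdala, none by 1 or more, and a median of -0.35. Without amygdala control 2 there were 11. C1qa, a complement subunit, was at 58.5, 58.01, 66.8 and 65.9 TPM in hippocampus and 90.6, 72.7, 89.4 and 88.1 TPM in amygdala (difference -0.44 ± 0.08, adjusted p = 0.00306), and Cx3cr1, the fractalkine receptor, averaged 43.9 against 57.2 TPM (-0.37 ± 0.09, adjusted p = 0.0125), a value made uncertain by genes that overlap it. P2ry12, which marks resting microglia, averaged 65.6 against 82.2 TPM and did not pass (-0.32 ± 0.12, adjusted p = 0.0724). P2ry12 passed without amygdala control 2, at -0.42 (adjusted p = 0.0146). Of 15 astrocyte genes, 2 (13.3%, against 19.1% of all genes) were higher in amygdala and 0 in hippocampus, among them S100b at 122 against 171 TPM (-0.48 ± 0.12, adjusted p = 0.0127). The count in hippocampus was 1 without amygdala control 1. For choroid plexus and ependyma, 3 of 11 were higher in hippocampus, and the count was 8 without hippocampus control 3 and 6 without amygdala control 1. Ttr, the thyroid hormone carrier that choroid plexus secretes, was at 3173, 3250.1, 20.2 and 572 TPM in hippocampus controls 1 to 4 and at 1054, 14.7, 64.4 and 22.4 TPM in amygdala controls 1 to 4, the largest SD of log2(TPM + 1) in each tissue among genes with a mean of 5 TPM or more. Its difference of 3.07 ± 1.75 (adjusted p = 0.211) did not pass, but that of 4.67 without hippocampus control 3 did (adjusted p = 0.0348). Kl, which encodes klotho, averaged 18.98 against 5.24 TPM and Foxj1, the factor of ciliated ependyma, 12.7 against 5.12 TPM (differences 1.71 ± 0.36, adjusted p = 0.00629, and 1.19 ± 0.30, adjusted p = 0.0152).

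Several further lists are given by their counts. Of 43 Wnt signalling genes, 4 were higher in hippocampus and 8 in amygdala, with a median difference of -0.14. These counts are 9.3% and 18.6% of the list, against 13.5% and 19.1% of all genes. Of 20 immediate early genes, 3 were higher in hippocampus and 2 in amygdala, with a median difference of -0.01. That is 15% and 10% of the list, near or below the shares of all genes, and the median was -0.14 without hippocampus control 2. Without amygdala control 2, 7 of these were higher in hippocampus, and without hippocampus control 2, 5 were higher in amygdala. Leaving out any of hippocampus controls 1, 3 and 4 or amygdala controls 1 and 2 left 0 higher in amygdala. Of 19 genes of perineuronal nets and matrix, 4 were higher in hippocampus and 3 in amygdala, with a median difference of 0.04. That is 21.1% and 15.8% of the list, against 13.5% and 19.1% of all genes. Of 14 mural, fibroblast and meningeal genes, 0 were higher in hippocampus and 6 in amygdala, with a median difference of -0.42, and of 10 endothelial genes 1 was higher in amygdala, 5 without amygdala control 2 and 0 without any other library. With all libraries the endothelial share was 10%, below the 19.1% of all genes. Among 11 thalamic genes, 2 (18.2%) were higher in hippocampus and 3 (27.3%) in amygdala, with a median difference of -0.12. Of 10 reference genes used as a comparison of household functions, 2 were higher in hippocampus and 2 in amygdala (20% each), with a median difference of -0.03. The 2 in amygdala were 0 or 1 when any library was left out.

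The regional difference was then measured in the 12 knockout libraries, which share no library with the comparison above. With genotype as a term in the limma model, 6343 of 14581 genes (43.5%) passed there. Of the 4750 genes called in controls, 4737 (99.7%) had the same direction in the knockouts, 4120 (86.7%) were also called, and 0 were called in the opposite direction. Of the 651 with a difference of at least 1, 650 kept the direction and 643 (98.8%) were called. In the 6 NCoR1-KO libraries alone, 4060 of 4750 were called in the same direction, and in the 6 SMRT-KO libraries alone 1917. The direction was the same for 4726 (99.5%) and 4599 (96.8%), and 0 were called in the opposite direction in either set. Median differences in SMRT-KO were 0.42 for genes called higher in hippocampus and -0.39 for those called higher in amygdala, against 0.46 and -0.42 in controls. Median differences of genes of at least 1 were 1.30 in controls and 1.35 in knockouts on the hippocampus side, and -1.33 and -1.62 on the amygdala side. Some genes had like differences in both sets, such as Dsp (4.47 in controls and 4.46 in knockouts), Gabra5 (1.74 and 1.84), Plxnd1 (-2.22 and -2.32) and Camk2d (-2.59 and -2.77). Others did not, such as Grm8 (-1.39 and -2.42), Adcyap1 (-1.75 and -2.91) and Trh (-3.60 and -2.70). For Penk, in which hippocampus control 2 stood high, the knockout value was -3.80, farther from 0 than in controls. Adora2a and Drd2, which did not pass in controls, were at -3.07 (adjusted p = 5.46e-06) and -2.46 (adjusted p = 1.15e-05).

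**Figure D5:**
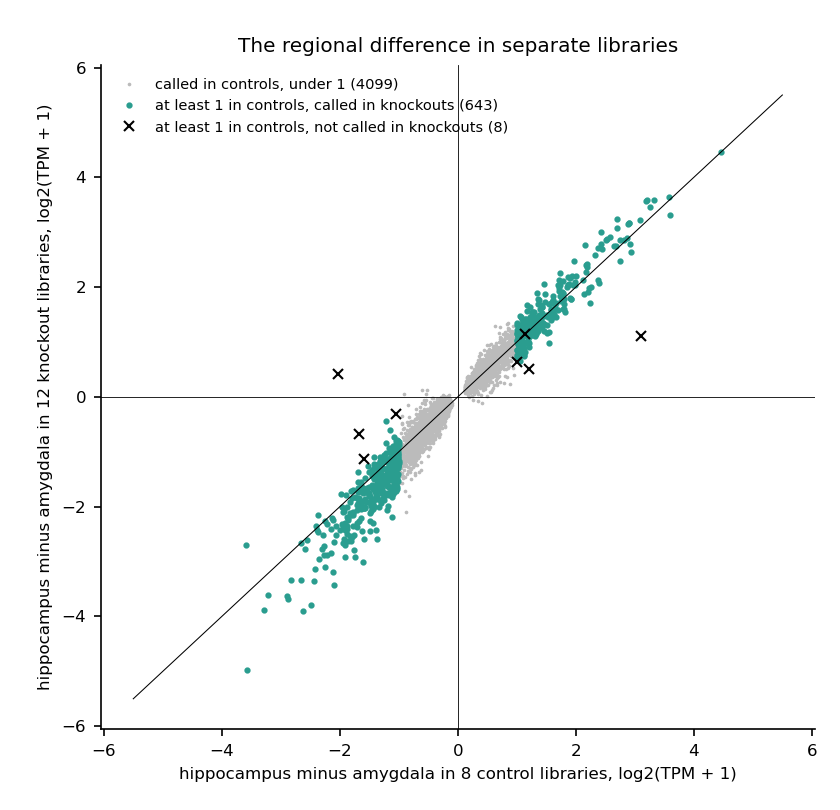
Difference between hippocampus and amygdala in the 8 control libraries (x axis) and in the 12 knockout libraries (y axis), on the log2(TPM + 1) scale, for the 4750 genes called in controls; crosses mark the 8 genes of at least 1 in controls that were not called in knockouts, and the line marks equal differences. The 643 green points had the same direction in both sets, and the 367 genes higher in amygdala by at least 1 had a median of -1.33 in controls and -1.62 in knockouts.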

How the data were processed

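RNA was sequenced from whole hippocampus and amygdala, and the deposited values are TPM, made by the authors and scaled to the same total in each library. The submitters' processing notes name bcl2fastq, fastp 0.21.0, STAR 2.5.3a, RSEM 1.3.3 and mm10, with no roles given, and no source read for this work states the gene annotation. One table per tissue was deposited by the authors. Both hold the same 23412 symbols and were joined by symbol, and 0 columns of other samples were present. TPM keeps no depth, so no counting interval was computed, and no count test was run.

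Genes with at least 1 TPM in at least 3 of the 8 control libraries were tested on log2(TPM + 1) with limma 3.58.1 (lmFit, eBayes with a trend) in R 4.3.3, with Benjamini-Hochberg adjustment over all 14581 genes and a threshold of 0.05. Summaries used Python 3.11.15. Groups came from the labels, without a block for the replicate number: no label says that equal numbers share an animal. Same-numbered libraries deviated together with r from 0.0408 to 0.314, and different-numbered ones with r from -0.332 to 0.243.

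Members and gene lists were chosen with earlier results of these data known. The text names Ncor1 and Snap25; genes among the 15 largest differences in each direction whose tissues do not overlap and whose higher mean reaches 5 TPM (predicted genes not named); up to 6 called members per list and direction and up to 3 that did not pass; the 6 genes of largest SD per tissue; and the most abundant gene with a difference of at least 1. Not all genes the rule allows are named, some items are not reported here, and those whose call was lost without 1 library were left out, while list counts include them. Adora2a and Camk2a lie outside the rule. Gene spans are from GENCODE M21 (GRCm38) and promoter windows from RefSeq (GRCm38.p6). Alternatives were another pseudocount, filters, scalings, weights, a replicate block, all 20 libraries and leaving out each library.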

Additional observations from a re-analysis of the deposited data

Results flagged for a closer look

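In 19 of 320 groups of 4 libraries examined (1 gene in 1 tissue each), a single library lay far from the other 3. For genes taken without regard to their values, chance gives this in about 1 in 20 groups. The genes named here were picked largely by their values in these libraries, so that rate is no measure for them. Hippocampus control 2 was that library in 8 cases. It was high for Adora2a (19.19 TPM, the others from 1.83 to 2.45), Gpr52 (7.87 TPM, others 2.18 to 2.60), Cdh13 (73.92 TPM, others 47.82 to 49.19), Cux2 (18.42 TPM, others 12.06 to 12.09) and Tfap2d (0.67 TPM, others 0 to 0.08). It was low for Nr3c2 (110.66 TPM, others 142.57 to 144.86), Pvalb (43.96 TPM, others 55.37 to 57.28) and Tdo2 (7.22 TPM, others 16.25 to 18.29). The 5 genes in which it was high had their higher mean in amygdala, and the 3 in which it was low had theirs in hippocampus.

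Hippocampus control 4 was high for Opalin (138.61 TPM, others 80.44 to 85.36) and Lrrc10b (66.85 TPM, others 55.56 to 56.89) and low for Npy (143.05 TPM, others 207.99 to 223.77). Amygdala control 1 was low for Ncor1 (71.28 TPM, others 117.39 to 126.54) and high for Foxj1 (9.19 TPM, others 3.62 to 3.90) and Lefty1 (0.75 TPM, others 0.30 to 0.36). Amygdala control 2 was low for C1qa (72.69 TPM, others 88.12 to 90.56) and high for Nr4a3 (31.45 TPM, others 12.15 to 13.78) and Snrpn (1096.5 TPM, others 1047.25 to 1050.4). Amygdala control 3 was high for Meis2 (89.91 TPM, others 65.12 to 66.73) and Sema3a (25.5 TPM, others 22.79 to 23.09).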

How the results depend on the processing

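All counts of called genes stayed within 1.5 times those reported under the other pseudocount, filters, scalings and weights. Leaving out 1 library gave 1543 to 1880 genes higher in hippocampus and 2214 to 2781 in amygdala, and 245 to 331 and 323 to 442 with a difference of at least 1. Testing directly for a difference above 1 (limma's treat) gave 68 and 32 genes. In SMRT-KO libraries alone, 1917 of the 4750 genes were called, while 4599 (96.8%) had the same direction as in controls. With the replicate number as a block, 1999 and 2871 genes were called. Same-numbered libraries correlated in their deviations with r from 0.0408 to 0.314, and different-numbered ones with r from -0.332 to 0.243. Hippocampus controls 1 and 2 correlated best with their own number, and hippocampus controls 3 and 4 with amygdala controls 4 and 1. No label gives pairs, so the numbers were not taken as pairs, and whether they are was not tested. Between 77.8% and 99.0% of the 4750 calls remained under each alternative, and 1 changed sign, under quantile normalization. Scaling moved the median of all genes by at most 0.034. With quantile-normalized values 2380 and 2406 genes were called higher in hippocampus and in amygdala, and with median-of-ratios scaling 2294 and 2347.

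Among the named genes Mbp lost its call, under quantile normalization. Genes whose call was lost without 1 library were not named, so leaving out a library could show no loss among them. Calls were gained by 7 named genes that had not passed. Adora2a gained 1 without hippocampus control 2 and without amygdala control 2, Prkcd without hippocampus control 1 and Ttr without hippocampus control 3. Gria2 did so without hippocampus control 2 and under both other scalings, and Oprm1 without hippocampus control 2, without amygdala control 4 and with all 20 libraries. Avp did so without amygdala control 2 or 4, with a pseudocount of 0.1 and with all 20 libraries, and P2ry12 without amygdala control 2, with the replicate block (adjusted p = 0.00585, limma), with array weights and with all 20 libraries. Genes that did not pass changed sign: Etv1 was at 0.0001 with median-of-ratios scaling and ran from -0.1448 to 0.13 when 1 library was left out, Mpped1 from -0.0791 to 0.1612, Ncor1 from -0.0758 to 0.2739, Rspo2 from -0.0878 to 0.2588, Scn4b from -1.001 to 0.4273 and Slc17a7 from -0.0652 to 0.1532. The median of the reference genes was 0.009 with median-of-ratios scaling. The causes were not tested. Depth is unknown, and 4 libraries per tissue limit the precision.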
